A study of Mus musculus with 6 samples.

Results

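Curated noncoding RNAs were examined in microglia, the resident macrophages of the brain, of mice with 1 or no working copy of Bhlhe41, a basic helix-loop-helix repressor of transcription. A noncoding probe was a non-control probe of the array whose target is an NR_ transcript, the RefSeq class of curated RNAs without a coding sequence, and whose gene has no probe on a curated coding (NM_) transcript. The rule found 2444 probes for 2235 genes among 56605 non-control probes, or 4.32%. Of 2556 probes on NR_ transcripts, 57 had no gene symbol in the RefSeq table and 55 belonged to genes with a coding probe, and both sets were left out.

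B41HET microglia carried the genotype Bhlhe41 dTomato-Cre/+ and B41KO microglia the genotype Bhlhe41 dTomato-Cre/dTomato-Cre, with 3 arrays each. Both genotypes thus carried at least 1 allele in which a dTomato and Cre cassette under the Bhlhe41 promoter ends translation ahead of the Bhlhe41 protein, so no wild-type cells entered the comparison. Young mice were used, and cells that were CD45lo, CD11b+ and Cx3cr1+ were sorted after Percoll enrichment. Total RNA was labelled with Cy3 and hybridised 1 sample per array. The methods describe each sample as pooled from several mice. The labels give 3 mice per genotype, and how the pools map to these was not worked out here. The comparison asked which noncoding transcripts differed in level between microglia with and without Bhlhe41 protein.

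Noncoding RNAs act in several ways. Long noncoding RNAs can silence neighbouring genes in cis, hold nuclear bodies together or serve as precursors of microRNAs and small nucleolar RNAs, and many have no known function. Transcribed pseudogenes resemble the coding gene they were copied from, and antisense transcripts run opposite to a coding gene. In macrophages a few long noncoding RNAs are known to be induced with inflammatory genes, while most curated noncoding genes are read mainly in testis, brain or embryo.

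All 6 arrays lay on 1 slide. Between 39634 and 42710 of all probes were well above background per array, no spot was saturated, and arrays of 1 genotype correlated at 0.989 to 0.993 over all probes, against 0.985 to 0.989 between genotypes. The 3 B41HET arrays and B41KO replicate 1 lay in the first row of the slide and B41KO replicates 2 and 3 in the second. Neither Bhlhe41 probe was called between the 2 genotypes (log2 differences 0.33, adjusted p = 0.204, and 0.38, adjusted p = 0.330). The allele is described as ending translation, and what these probes read from it was not tested, so they do not check the genotype labels. All 9 microglia markers, among them P2ry12 and Tmem119, were well above background on every array, and 1 was called lower. Of 11 neutrophil markers, also all well above background, 8 were lower in B41KO, with a summed signal of 30924 to 34746 in B41HET and 6139 to 6547 in B41KO. Of 8 markers of border macrophages, 5 were lower, with a summed signal of 2378 to 2572 against 1600 to 1794. Of 4 endothelial markers 2 were lower, with 1143 to 1251 against 392 to 443, and Flt1 had no array well above background. B cell, T and NK cell, neuron, oligodendrocyte and astrocyte markers counted 2 lower and 0 higher genes among 21. The part of such cells in the noncoding differences was not tested, and fewer cells of a type cannot be told apart from less RNA per cell.

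Bhlhe41 binds CACGTG, an E-box. The promoter windows of the 4 called noncoding genes that hold it are shown because they carry the motif of the factor that differs between the genotypes. Each window runs from 250 bases before the gene start to 50 bases after it in RefSeq, build GRCm38.p6, written 5′ to 3′ on the gene's strand, with CACGTG in capitals. CACGTG reads the same on both strands.
AW822252, chrX:53716529-53716828, minus strand: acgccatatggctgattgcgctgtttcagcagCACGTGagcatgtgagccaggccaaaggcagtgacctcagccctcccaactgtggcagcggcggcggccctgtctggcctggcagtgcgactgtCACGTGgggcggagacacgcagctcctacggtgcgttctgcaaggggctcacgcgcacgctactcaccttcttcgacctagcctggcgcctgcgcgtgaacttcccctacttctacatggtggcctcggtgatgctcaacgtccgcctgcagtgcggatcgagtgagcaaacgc
1700057H21Rik, chr2:51437851-51438150, minus strand: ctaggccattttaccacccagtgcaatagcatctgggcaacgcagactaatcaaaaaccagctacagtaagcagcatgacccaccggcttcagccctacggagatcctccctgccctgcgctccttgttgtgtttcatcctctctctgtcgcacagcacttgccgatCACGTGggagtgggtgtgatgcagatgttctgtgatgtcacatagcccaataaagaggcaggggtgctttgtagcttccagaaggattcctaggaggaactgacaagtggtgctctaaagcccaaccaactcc
C030037D09Rik, chr11:88718393-88718692, plus strand: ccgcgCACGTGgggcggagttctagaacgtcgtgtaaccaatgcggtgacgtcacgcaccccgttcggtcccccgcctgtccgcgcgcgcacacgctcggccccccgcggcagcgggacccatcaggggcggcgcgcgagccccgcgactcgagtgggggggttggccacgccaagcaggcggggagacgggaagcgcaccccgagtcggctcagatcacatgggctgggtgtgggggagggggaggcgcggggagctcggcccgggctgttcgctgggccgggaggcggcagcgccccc
0610009L18Rik, chr11:120348428-120348727, plus strand: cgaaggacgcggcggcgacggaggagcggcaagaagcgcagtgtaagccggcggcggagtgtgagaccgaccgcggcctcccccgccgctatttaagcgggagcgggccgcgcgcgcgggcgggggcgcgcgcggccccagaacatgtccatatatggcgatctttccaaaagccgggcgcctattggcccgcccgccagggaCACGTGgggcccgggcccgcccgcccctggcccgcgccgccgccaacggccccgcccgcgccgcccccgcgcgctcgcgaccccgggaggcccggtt

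AW822252 and 1700057H21Rik were higher in B41KO, and C030037D09Rik and 0610009L18Rik were lower, so genes with the motif were called in both directions. AW822252 held 2 copies and the others 1 each. A window was listed for 1568 of the noncoding genes, and 122 of them, or 7.78%, held CACGTG, against 2187 of 27025 genes in all (8.09%). Among called noncoding genes with a window 4 of 41 held it (9.76%). These are letter matches in a fixed window, and binding was not measured here.

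The values behind these 4 windows were as follows. AW822252 read 3.60, 3.58 and 3.12 on the log2 signal scale in B41HET replicates 1 to 3 and 5.18, 5.38 and 4.95 in B41KO, with no overlap. It was well above background on 2 B41HET arrays and all 3 B41KO arrays, and its log2 difference (B41KO minus B41HET throughout) was 1.74 ± 0.18 (SE, n = 3 per genotype, limma adjusted p = 0.00914). The call was kept with any 1 library left out, and the difference was 0.42 under normexp. C030037D09Rik read 4.76, 4.80 and 4.46 in B41HET and 3.50, 3.44 and 3.58 in B41KO, all well above background, a log2 difference of -1.16 ± 0.11 (adjusted p = 0.00786) that was also kept with any 1 library left out and was -0.30 under normexp. Its nearest coding gene, Msi2, an RNA-binding protein of stem cells, differed by 0.01 (adjusted p = 0.952). 0610009L18Rik, beside the cytoplasmic actin gene Actg1, lay at 5.59 to 5.75 in B41HET and at 5.03 to 5.04 in B41KO (log2 difference -0.63, adjusted p = 0.0116), and lost its call without B41HET replicate 2 (adjusted p = 0.0608). 1700057H21Rik lay at 2.6 to 3.01 and 3.38 to 3.77 (0.83, adjusted p = 0.0415), and only 1 B41HET array had it well above background. Its call was lost with any 1 library left out (adjusted p 0.0620 to 0.125). Under normexp 0610009L18Rik gave -0.33 and 1700057H21Rik 0.16, neither called.

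Over all noncoding probes, 36 were called higher in B41KO and 28 lower, a call being a Benjamini-Hochberg adjusted p of at most 0.05 and a log2 difference of at least 0.5 in size. That is 2.62% of the 2444, whereas 5.09% of all 56601 tested probes and 5.92% of probes on curated coding transcripts were called. By direction 1.47% were higher, against 1.72% of all probes, and 1.15% were lower, against 3.38%. The 64 probes belonged to 63 genes, 35 higher and 28 lower. The share of calls that were higher was 56.2%, against 33.7% over all probes, and it was 73.1% when arrays were scaled to a common 75th percentile and not by quantiles. With 1 library left out it ran from 40.7%, without B41KO replicate 2 (11 higher, 16 lower), and 45.8%, without B41HET replicate 1 (11 higher, 13 lower), up to 60.7%, without B41HET replicate 3, so the majority of higher calls turned in 2 of the 6 fits. The 75th percentile scaling moved the median difference of all probes from 0.01 to 0.13 and the median of the noncoding probes from 0.04 to 0.21.

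The noncoding probes were dimmer than the rest. Their median log2 signal was 4.02, against 5.39 over all probes and 6.06 over coding probes, and 1339 (54.8%) were well above background on all 6 arrays, against 67.5% of all probes. For 809 probes (33.1%) no array was well above background. At or above the median signal of the array 31 of 851 noncoding probes were called (3.64%), against 6.99% of all probes there, and below it 33 of 1593 (2.07%), against 3.20%. Among those well above background on all 6 arrays the share was 3.51%, against 6.29%. The lower share of calls was thus seen both above and below the median signal. The median size of a log2 difference was 0.18 for noncoding probes and 0.19 for all probes.

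**Figure D1:**
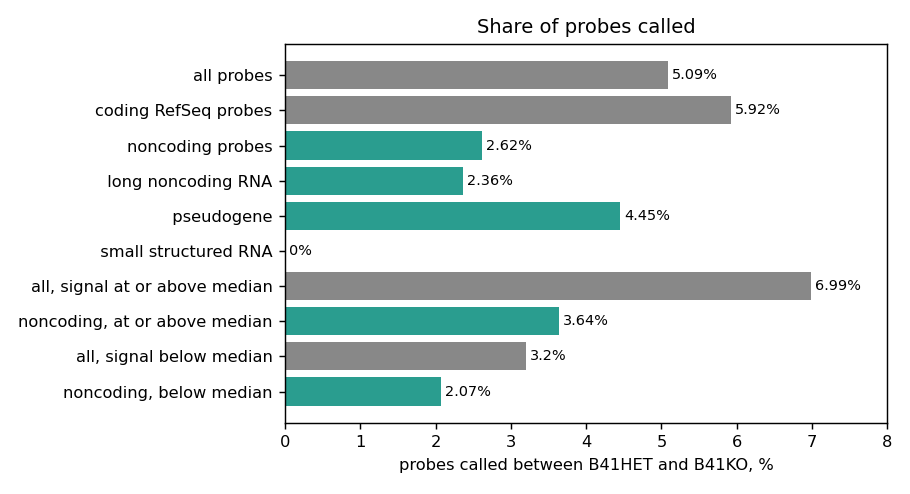
Share of probes called between B41HET and B41KO (3 arrays each), in percent, for all probes and coding probes in grey and noncoding probes in green, by RefSeq type and by signal relative to the median of all probes. Noncoding probes stand at 2.62%, below the 5.09% of all probes, and pseudogenes at 4.45%.

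All 64 called probes had no overlap between genotypes, as had 540 noncoding probes in all (22.1%, against 29.6% of all probes). Of the 64, 47 were well above background on all 6 arrays, 26 higher and 21 lower, 12 on some arrays and 5 on none. The counts were sensitive to single libraries. With 1 library left out, 7 to 22 probes were called higher and 6 to 18 lower, with the lowest counts, 7 and 6, when B41HET replicate 2 was left out. In those 6 fits 9 probes kept their call every time, 34 in some and 21 in none, and no difference changed sign. A fit with a block for the row of the slide called 14 higher and 2 lower, and 1 of these, 9030619P08Rik, was among the 64. Under normexp background correction with an offset of 50, which by construction shrinks differences of dim probes, 17 of the 64 kept their call and 41 differences moved by over 1.5 times. The row block thus ended the call of every other one of the 64, also of those that kept it with any library left out. The second row held no B41HET array, so the row block fit takes its genotype difference from B41KO replicate 1 against the 3 B41HET arrays. An effect of the row therefore cannot be told apart there from the loss of B41KO arrays to compare. Within the first slide row, which gives these same differences, the median of the 36 higher probes was 0.79, against 0.84 over 6 arrays. That of the 28 lower probes was -0.77, against -0.75. The probes had been called on these same arrays, so the within-row values are a description only and do not show that the calls hold within a row.

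**Figure D2:**
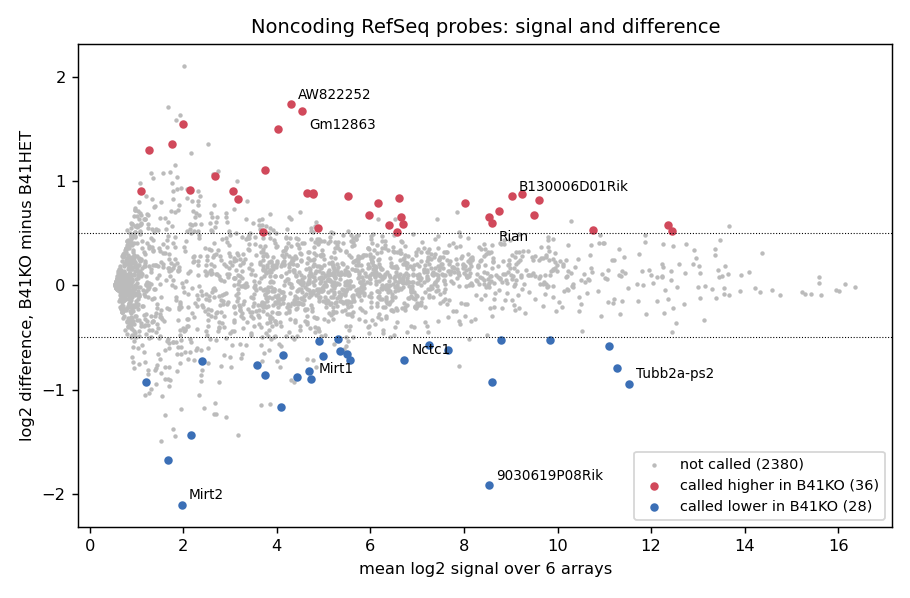
Each point is 1 of 2444 noncoding probes, with the mean log2 signal over 6 arrays on the x axis and the log2 difference, B41KO minus B41HET, on the y axis. Red points were called higher (36), blue points lower (28), and dotted lines mark a difference of 0.5. Most calls lie between 0.5 and 1 in size, and 9030619P08Rik lies apart from the other lower probes of like signal.

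By RefSeq type, 2116 probes were for long noncoding RNAs, with 28 higher and 22 lower (2.36%, against 5.09% of all probes). Another 292 probes were for pseudogenes (288 of them typed as transcribed), with 8 higher and 5 lower (4.45%). Small structured RNAs had 32 probes, 31 of them well above background on all 6 arrays, and none was called. Of all probes so measured 6.29% were called, a share at which 0 of 32 says little. RefSeq now types 4 probes as coding, of which Borcs8, a subunit of a lysosome-positioning complex, was called lower (-0.52, adjusted p = 0.0156), which kept its call only without B41KO replicate 1.

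Among long noncoding RNAs well above background on every array, Gm12863 rose the most. It read 3.48, 3.63 and 3.98 in B41HET and 5.57, 5.26 and 5.28 in B41KO. The lowest B41KO value lay well over the highest B41HET value, and the log2 difference was 1.68 ± 0.16 (n = 3 per genotype, adjusted p = 0.00752), kept with any library left out. Under normexp it was 0.55, still called, and with the row block adjusted p was 0.0518. Its nearest coding gene, Lao1, an L-amino acid oxidase, gave 1.31 with adjusted p = 0.206. Gm11665, which overlaps the atrial myosin light chain gene Myl4, gave 1.5 ± 0.22 (adjusted p = 0.0209) with 5 arrays well above background, and its call was kept in 2 of 6 fits with 1 library left out (adjusted p up to 0.0775). Under normexp it gave 0.33 and was not called. Gm11665, AW822252 and the other called genes named outside the largest changes were chosen after their values were seen.

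Gm15880 overlaps Crtc3, a CREB coactivator gene. It lay at 2.98 to 3.50 in B41HET and at 4.04 to 4.59 in B41KO (1.11, adjusted p = 0.0356), and lost its call with any library left out (adjusted p 0.0516 to 0.116). 4930509J09Rik (0.89, adjusted p = 0.0168), 1700047E10Rik (0.87, adjusted p = 0.0105), B130006D01Rik (0.86, adjusted p = 0.0122), 1700007L15Rik (0.85, adjusted p = 0.0189) and G630055G22Rik (0.84, adjusted p = 0.0127) completed the long noncoding RNAs among the largest increases. Under normexp Gm15880, 4930509J09Rik, 1700047E10Rik, 1700007L15Rik and G630055G22Rik gave 0.20 to 0.46 and none was called. With libraries left out, 1700047E10Rik kept its call with any library left out, B130006D01Rik lost it without B41HET replicate 2 (adjusted p = 0.0518), G630055G22Rik without B41HET replicate 2 or B41KO replicate 2 (adjusted p up to 0.0560), and 4930509J09Rik and 1700007L15Rik kept it only without B41HET replicate 3. B130006D01Rik was the brightest of them. Its better probe read 8.43, 8.68 and 8.66 in B41HET and 9.37, 9.55 and 9.41 in B41KO, and its second, dimmer probe gave 0.52 with adjusted p = 0.0674. It lies beside Zfp652, a zinc finger repressor gene, which differed by -0.13 (adjusted p = 0.682).

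**Figure D3:**
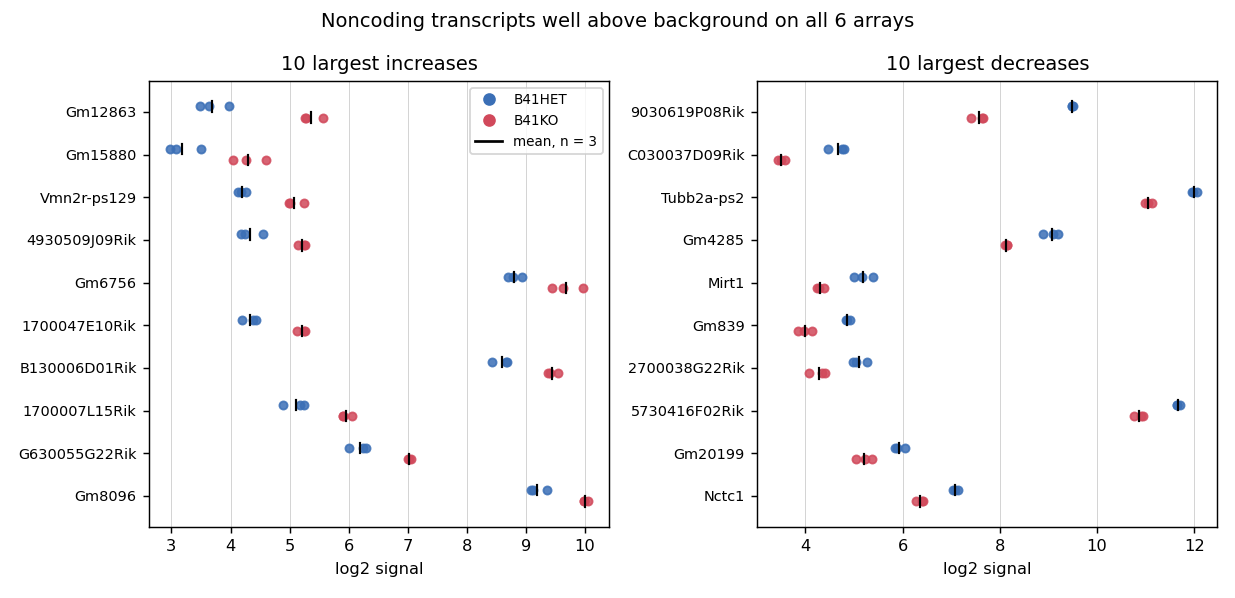
Log2 signal of the 10 noncoding genes with the largest increases (left) and the 10 with the largest decreases (right) among called genes well above background on all 6 arrays. Blue points are the 3 B41HET arrays, red points the 3 B41KO arrays and black ticks the means. Genes were picked for having no overlap between the 2 colours.

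Among the lower long noncoding RNAs, Gm4285 read 8.90, 9.20 and 9.10 in B41HET and 8.14, 8.11 and 8.15 in B41KO, a log2 difference of -0.93 ± 0.10 (adjusted p = 0.00929), kept with any library left out. It lies beside Tpt1, the gene of translationally controlled tumour protein, whose difference was 0.13 (adjusted p = 0.472). Gm839 (-0.88, adjusted p = 0.00952) lies beside the semaphorin receptor gene Plxna1 and lost its call without B41HET replicate 2 (adjusted p = 0.0524). 2700038G22Rik (-0.82, adjusted p = 0.0233) and Gm20199 (-0.71, adjusted p = 0.0271) lost theirs with any library left out, at adjusted p of 0.0512 to 0.0993. Under normexp Gm839, 2700038G22Rik and Gm20199 gave -0.23, -0.22 and -0.38 and were not called. Gm20199 overlaps Arih1, a ubiquitin ligase gene that was itself called lower (-0.63, adjusted p = 0.0205).

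Immune long noncoding RNAs were represented by 8 of the 11 genes listed, and Mirt1 and Mirt2 were called, both lower. That is 18.2% of their 11 probes, against 5.09% of all probes called and 3.38% called lower. So few calls in a list this short say little about the class. Mirt1 and Mirt2 are both known from infarcted heart, and Mirt2 as an RNA that rises in macrophages after lipopolysaccharide. Mirt1 read 5.0, 5.16 and 5.4 in B41HET and 4.38, 4.23 and 4.27 in B41KO (-0.90 ± 0.12, adjusted p = 0.0172). The call was lost without B41HET replicate 2 or any 1 of the B41KO replicates (adjusted p up to 0.0735). Mirt2 read 3.06, 3.16 and 2.84 in B41HET, with 2 arrays well above background. In B41KO it read 0.60, 1.41 and 0.73, with no array well above background (adjusted p = 0.0105). The bound was 1.16-fold lower in B41KO. This bound sets the mean of all B41HET arrays against the lowest signal that was well above background on each B41KO array. For B41KO replicate 3 that signal, 3.24, lay above every B41HET value, so the bound is no strict minimum. Under normexp Mirt1 gave -0.29 and Mirt2 -0.10, under its bound, and neither was called. The Mirt2 call was lost without B41HET replicate 1 or 2 (adjusted p up to 0.0556). The neutrophil markers fell in the same libraries, from 30924 or more to 6547 or less in summed signal, and their part was not tested. Morrbid, a regulator of myeloid cell lifespan, differed by -0.14 (adjusted p = 0.657), Pvt1 by -0.24 (adjusted p = 0.237), Lncpint by 0.18 (adjusted p = 0.268), Dleu2 by -0.10 (adjusted p = 0.769) and Ptgs2os2, from the locus of the prostaglandin synthase Ptgs2, by 0.15 (adjusted p = 0.391).

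Several called transcripts were well above background only on some or all arrays of 1 genotype, or on no array. 5430437J10Rik, beside the prostaglandin E receptor gene Ptger4, had no B41HET array well above background. It read 2.88, 3.35 and 3.37 in B41KO, with 2 arrays well above background and a bound of 1.54-fold higher (adjusted p = 0.0200). 1700096K18Rik, well above background on 1 B41HET array and no B41KO array, had a bound of 1.06-fold lower in B41KO (adjusted p = 0.0131). 3110009F21Rik, well above background on 1 B41KO array and no B41HET array, had a bound of 1.13-fold higher (adjusted p = 0.0183). Such a bound averages all arrays of the higher genotype, also those not well above background, so it is no strict minimum. Each of these 3 calls was lost in 4 or 5 of the 6 fits with 1 library left out. Under normexp none was called and the log2 differences were 0.11 for 5430437J10Rik, -0.05 for 1700096K18Rik and 0.14 for 3110009F21Rik, under these bounds, which hold for the main processing only. The 5 called probes with no array well above background were AI504432, 1700084F23Rik, Gm15328, A230077H06Rik and Ppp1r2-ps7, for which no fold is given.

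Imprinted noncoding RNAs are read from 1 parental chromosome and often silence neighbours in cis. Of 10 listed genes, 8 had a noncoding probe, 16 probes in all. Of these probes 2 were called higher and 1 lower (18.8%, against 5.09% of all probes and 2.62% of noncoding probes). Kcnq1ot1 alone had 5 of the 16 probes, and probes of a gene share the same RNA. So few calls in a list this short say little about the class. In the Dlk1-Dio3 region on chromosome 12, Meg3, Rian and Mirg are read from the maternal chromosome and carry snoRNAs and microRNAs. Rian read 8.17, 8.22 and 8.49 in B41HET and 8.8, 8.89 and 9.0 in B41KO, a log2 difference of 0.60 ± 0.11 (adjusted p = 0.0405). Mirg read 10.72, 10.76 and 10.88 against 11.20, 11.16 and 11.21, and its difference of 0.40 ± 0.08 had adjusted p = 0.0392 but lay under the fold threshold. Neither overlapped between genotypes. The brightest Meg3 probe went the other way, from 5.69 to 5.75 in B41HET to 5.22 to 5.57 in B41KO (-0.27, adjusted p = 0.231), and its 3 dimmer probes gave 0.07 to 0.83, none called. The Rian call was kept only without B41HET replicate 3 (adjusted p = 0.0477) and stood at adjusted p of 0.0851 to 0.136 without any other library.

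Rian and Mirg hold the microRNAs of this region whose host transcript passed an adjusted p of 0.05. The mature sequences from Rian's 3 hairpins are shown as the products of the called host, from RefSeq on GRCm38.p6, 5′ to 3′, with the seed (bases 2 to 8), which pairs with targets, in capitals.
mmu-miR-341-5p, chr12:109611521-109611541, plus strand: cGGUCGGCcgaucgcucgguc
mmu-miR-341-3p, chr12:109611556-109611576, plus strand: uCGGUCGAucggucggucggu
mmu-miR-1188-5p, chr12:109611841-109611861, plus strand: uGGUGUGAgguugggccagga
mmu-miR-1188-3p, chr12:109611877-109611901, plus strand: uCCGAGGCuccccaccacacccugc
mmu-miR-370-5p, chr12:109618270-109618289, plus strand: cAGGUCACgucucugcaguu
mmu-miR-370-3p, chr12:109618305-109618326, plus strand: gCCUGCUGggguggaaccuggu

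The 6 seeds differ from each other. Mirg holds 10 hairpins, and 2 of its products share the seed GGUUGCC, shown for that reason.
mmu-miR-453, chr12:109735669-109735692, plus strand: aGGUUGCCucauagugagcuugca
mmu-miR-496a-5p, chr12:109739132-109739152, plus strand: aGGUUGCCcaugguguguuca

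Mature microRNAs were not measured, and the array probes read only the long host transcripts. In all 29 noncoding genes held 56 different hairpins. Of the 29 hosts, 15 were well above background on all 6 arrays and 13 on none, and Rian was the only called host (3.45%, against 5.49% of all named genes). Hosts with no array well above background included Mir155hg, the host of the inflammatory miR-155, and F630028O10Rik, which holds the myeloid Mir223. E130102H24Rik, holding Mir101a, gave 0.44 (adjusted p = 0.0472), under the fold threshold. Mir22hg gave -0.50 (adjusted p = 0.174), 6430411K18Rik, which holds Mir433 in the Dlk1-Dio3 region, 0.52 (adjusted p = 0.104), and Mir100hg -0.18 (adjusted p = 0.273).

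**Figure D4:**
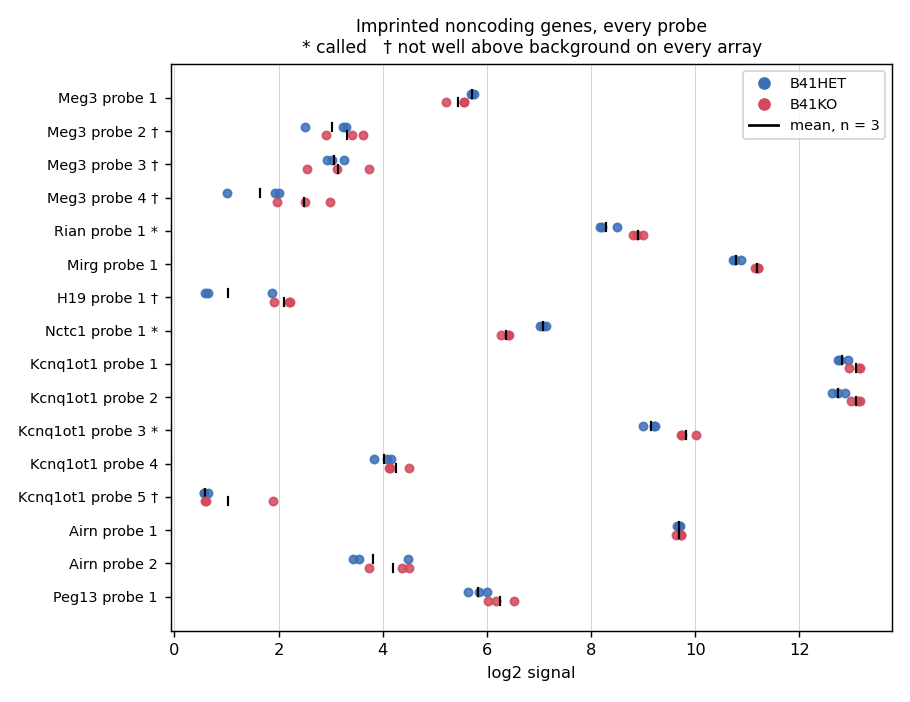
Log2 signal of the 16 probes on imprinted noncoding genes in each of the 3 B41HET (blue) and 3 B41KO (red) arrays, with black ticks for means. Probes with a star were called and those with a dagger were not well above background on every array. Rian and the third Kcnq1ot1 probe stand higher in B41KO and Nctc1 lower.

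Kcnq1ot1, the long antisense RNA that silences the Kcnq1 domain on the paternal chromosome, had 5 probes, the most of any noncoding gene. The third brightest probe read 9.22, 9.01 and 9.22 in B41HET and 9.72, 10.01 and 9.75 in B41KO and was called (0.68 ± 0.11, adjusted p = 0.0305). The other 4 gave 0.23 to 0.44 and were not called, including the brightest (0.26, adjusted p = 0.189), and the called probe lost its call with any library left out (adjusted p 0.0697 to 0.102). All 5 differences were positive, and the probes of a gene share the same RNA. Nctc1, a muscle-expressed transcript between H19 and Mrpl23, fell. It read 7.03, 7.13 and 7.08 in B41HET and 6.28, 6.42 and 6.4 in B41KO (-0.71 ± 0.08, adjusted p = 0.00980), and of the 6 fits with 1 library left out the call was lost in that without B41HET replicate 2 (adjusted p = 0.0554). It was also lost under normexp (-0.49) and with the row block (adjusted p = 0.0624). H19 had no array well above background. Airn differed by 0.01 (adjusted p = 0.960) and Peg13 by 0.41 (adjusted p = 0.217).

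Of the X inactivation genes, the probes of Xist and Ftx had no array well above background, and Jpx, an activator of Xist, gave 8.27 to 8.48 in B41HET and 8.25 to 8.51 in B41KO, overlapping. Abundant nuclear and housekeeping RNAs were bright, with 13 of 15 probes well above background on all 6 arrays. None of these 10 genes was called, against 6.29% of all probes so measured, a share at which 0 says little. Neat1, the scaffold of paraspeckles, read 9.70, 9.59 and 9.66 in B41HET and 10.10, 9.92 and 9.91 in B41KO, a difference of 0.33 (adjusted p = 0.0841) without overlap. Its second probe gave 0.32 (adjusted p = 0.149). Rn7sk, which holds the elongation factor P-TEFb, gave 0.25 (adjusted p = 0.198), Tug1 -0.16 (adjusted p = 0.254), Rmrp, the RNA of RNase MRP, -0.22 (adjusted p = 0.224), and Terc, the telomerase RNA, 0.16 (adjusted p = 0.284). The brightest Norad probe gave 0.28 (adjusted p = 0.121) and another probe well above background on all 6 arrays 0.27 (adjusted p = 0.147). Another probe, well above background on 5 arrays, gave -0.78 (adjusted p = 0.119), and the dimmest, on 3 arrays, -1.17 (adjusted p = 0.257).

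Host genes of small nucleolar RNAs, 15 in number, gave no call, with 14 of 16 probes well above background on all 6 arrays, where 6.29% of all probes were called. In lists this short that share gives about 1 call, so a count of 0 says little. Snhg20 stood at 7.64 to 7.86 in B41HET and 8.04 to 8.16 in B41KO (0.38, adjusted p = 0.0663), Snhg1 at -0.45 (adjusted p = 0.177), and Snhg7 (0.01), Snhg12 (0.02) and Zfas1 (-0.06) close to 0. None of 19 small nucleolar, Cajal body, Y and spliceosomal RNA genes and none of 9 neural genes was called, against 5.49% of all named genes. Only 6 of the 16 neural probes were well above background on all 6 arrays, and in both lists 0 says little. The 10 noncoding genes of highest signal, at a mean log2 signal of 15.24 to 16.37, included the ribosomal Rn28s1, the signal recognition RNA Rn7s1 and Rn4.5s. Their differences ran from -0.09 to 0.08, and none was called. Ribosomal and signal recognition RNAs lack the long poly(A) tail from which standard Quick Amp labelling is primed.

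Transcribed pseudogenes held the largest decrease among noncoding probes well above background on every array. 9030619P08Rik, in the Ly6 cluster of surface antigen genes, read 9.51, 9.48 and 9.49 in B41HET and 7.65, 7.64 and 7.42 in B41KO. The B41HET values had an SD of 0.02, the log2 difference was -1.92 ± 0.09 (adjusted p = 0.00132), and the call was kept with any library left out (adjusted p up to 0.0147). Its nearest coding gene, Ly6l, gave 0.02 (adjusted p = 0.967). Ly6c1, an endothelial marker of the same family, was also called lower, and whether the 9030619P08Rik probe reads Ly6 paralogs was not tested. The neutrophil markers were lower in the same 3 libraries, and their part was not tested.

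Tubb2a-ps2, a copy of the beta-tubulin gene Tubb2a, was bright and lower. It read 12.05, 11.98 and 11.95 in B41HET and 11.04, 11.13 and 10.98 in B41KO (-0.94 ± 0.07, adjusted p = 0.00484, kept with any library left out). Tubb2a itself gave -0.38 (adjusted p = 0.0336), which lay under the fold threshold, so parent and copy went the same way by different amounts. A probe for a pseudogene can also read its parent, so the Tubb2a-ps2 value is uncertain in this respect. 5730416F02Rik read 11.65, 11.72 and 11.64 against 10.91, 10.76 and 10.95 (-0.80, adjusted p = 0.00873), and lost its call without B41HET replicate 2 (adjusted p = 0.0501).

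Among higher pseudogenes, Vmn2r-ps129, of the vomeronasal receptor family, read 4.13, 4.26 and 4.18 in B41HET and 4.99, 5.24 and 5.0 in B41KO (0.89, adjusted p = 0.0103, kept with any library left out, but 0.25 and not called under normexp). Gm6756 (0.88, adjusted p = 0.0336) kept its call only without B41KO replicate 1, with a dimmer second probe at 0.21 (adjusted p = 0.704), and Gm8096 (0.81, adjusted p = 0.0131) kept it only without B41HET replicate 1 or B41KO replicate 3. Mrgpra6, of a sensory neuron receptor family, had 2 called probes of 3, at 0.52 and 0.58 (adjusted p = 0.0161 and 0.0162), and the brightest, at 0.44, was not called (adjusted p = 0.0551). Each called probe kept its call only without B41KO replicate 3. Gm3219 (0.71, adjusted p = 0.0476) was higher, as was its neighbour in the annotation, Glud1, glutamate dehydrogenase (0.67, adjusted p = 0.0391), but lost its call with any 1 library left out (adjusted p 0.0761 to 0.134). Over the 31 pseudogenes whose parent could be read from the name and was measured, 2 pseudogenes were called (Tubb2a-ps2 and Ppp1r2-ps7) and 0 parents, against 5.49% of all named genes, a share at which 0 of 31 says little.

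Antisense and opposite-strand transcripts, 166 probes, had 2 higher and 1 lower (1.81%, against 5.09% of all probes and 2.62% of noncoding probes). Of 148 genes with a measured partner on the other strand, 3 were called, and in 11 pairs, with 10 different partner genes, the partner was called (7.43%, against 5.49% of all named genes). In no pair were both. Ccdc34os was higher (0.59, adjusted p = 0.0122), whereas Ccdc34 gave -0.42 (adjusted p = 0.0800). Zbtb11os1 was lower (-0.67, adjusted p = 0.0266) beside -0.38 for Zbtb11 (adjusted p = 0.135). Zfp652os was called higher (adjusted p = 0.0499) with 1 array well above background, which sets no fold, and lost its call with any 1 library left out (adjusted p 0.0746 to 0.138). Zfp652 gave -0.13. Ccdc34os lost its call without B41HET replicate 1 or 2 (adjusted p up to 0.0646), and Zbtb11os1 kept it only without B41KO replicate 3. Of the 11 pairs with a called partner 5 differed in the same direction and 6 in opposite ones, with the antisense gene called in none. Among the opposite, Zeb2, a transcription factor of the microglial and wider myeloid lineage, was called lower (-0.53, adjusted p = 0.0488), whereas Zeb2os gave 0.31 (adjusted p = 0.121). Igf2 was called lower (-0.51, adjusted p = 0.0433) and Igf2os gave 0.15 (adjusted p = 0.447). Among the same-direction pairs, Tomm6 was called higher (0.58, adjusted p = 0.0140) beside 0.13 for Tomm6os, and Arhgap27 lower (-0.57, adjusted p = 0.0295) beside -0.05 for Arhgap27os3.

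The nearest coding gene was measured for 2138 noncoding genes, and 154 of those neighbours were called (7.20%). Beside the 61 called noncoding genes with a measured neighbour, 6 neighbours were called (9.84%), 3 in the same direction and 3 in the opposite one. AI504432, with no array well above background, lies beside Kcna3, a potassium channel gene of activated microglia and lymphocytes, which was lower (-1.67, adjusted p = 0.00685). The other same-direction pairs were Gm20199 with Arih1 and Gm3219 with Glud1. In opposite directions, 5430437J10Rik was higher and Ptger4 lower (-1.60, adjusted p = 0.00358), and 2810002D19Rik was higher (0.51) and Ttc17 lower (-0.55, adjusted p = 0.0253). The brighter of the 2 probes of 2810002D19Rik gave 0.23 and was not called. Likewise Gm6566 was higher (0.51) and Gstz1, an enzyme of tyrosine breakdown, lower (-0.73, adjusted p = 0.0390). None of these 6 noncoding genes kept its call in all 6 fits with 1 library left out, and Gm20199, Gm3219, 2810002D19Rik and Gm6566 kept it in none. Of the called noncoding genes 23 overlap a coding gene (36.5%), as do 839 of all 2235 (37.5%).

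**Figure D5:**
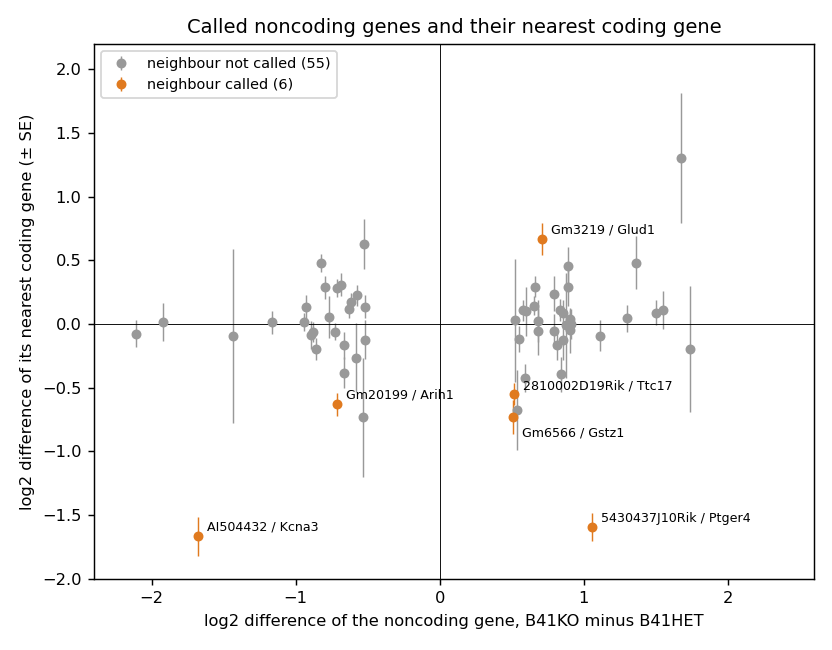
Log2 difference (B41KO minus B41HET) of 61 called noncoding genes on the x axis and of their nearest coding gene on the y axis, with bars for the SE (n = 3 per genotype). Orange points mark the 6 pairs in which the coding gene was called too, 3 of them in the same direction.

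Proteins that make or act through noncoding RNAs were taken from a list of 41 genes, all of them measured, and 1 was called higher and 1 lower (4.88%, against 5.49% of all named genes). None of 10 microRNA processing genes was called (differences -0.41 to 0.29), nor any of 8 snoRNP genes (-0.59 to 0.49) or of 8 nuclear decay genes (-0.51 to -0.01). Some genes of the list passed an adjusted p of 0.05 (0.0192 to 0.0492) but lay under the fold threshold. These were Ago2 (-0.41), Gar1 (0.49), Snu13 (-0.47), Spen (-0.43), Ezh2 (-0.37), Exosc10 (-0.35), Exosc3 (-0.43) and Upf1 (-0.46). Rbm14, a paraspeckle protein that works with Neat1, read 7.62, 7.65 and 7.63 in B41HET and 8.26, 8.24 and 8.07 in B41KO (0.56, adjusted p = 0.0195). Ciz1, which anchors Xist RNA to the nuclear matrix, read 12.68, 12.69 and 12.59 in B41HET and 11.63, 11.70 and 11.53 in B41KO (-1.03, adjusted p = 0.00450).

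Genes with several probes did not always give 1 answer. Of 187 such noncoding genes, 10 had a called probe, in none were all probes called, and in 6 the brightest probe was not the called one, among them Kcnq1ot1, 4833422C13Rik and AY702103. Taking the brightest probe of each gene, 57 noncoding genes were called, and over all named genes taken this way 5.49% were.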

How the data were processed

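Agilent 1-colour mouse arrays, 3 B41HET and 3 B41KO, were analysed. The authors deposited 1 scanner file per array, per the file headers written by Feature Extraction, holding linear intensity values, and a table of log2 values. Here the background-corrected processed intensity was taken as log2, quantile normalized over the 6 arrays (limma 3.58.1 in R 4.3.3), outlier-flagged spots (95 to 136 per array) were then left out, and spots of a probe were averaged. All probes were fitted with lmFit and eBayes, with Benjamini-Hochberg adjustment over 56601 probes and the thresholds of the study's methods, an adjusted p of 0.05 and a log2 difference of 0.5. The fit was tested on simulated data. Symbols came from accession matches to RefSeq (97.8% of NR_ probes matched). The nearest coding gene was taken from the same table. Sequences are RefSeq's on GRCm38.p6.

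Genes were named by rule: the brightest probe of each called gene without overlap, the 10 largest increases and decreases well above background on all 6 arrays, up to 5 bounded changes each way, gene lists and the 10 brightest genes. The noncoding probes and lists were chosen with earlier results of these data known. Replicate numbers were not used to pair the arrays in the main fit, and whether they pair them was not settled. Arrays give no read depth, and their number limits precision. Whether samples of 1 genotype came from separate mice rests on the labels, so p-values measure the spread between these samples.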

Additional observations from a re-analysis of the deposited data

How the results depend on the processing

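The counts, 36 probes higher and 28 lower, depended on the processing. They became 57 and 21 with a 75th percentile shift, 16 and 6 with normexp background correction on the median signals, 14 and 2 with a block for the row of the slide, and 56 higher with no fold threshold. With 1 library left out they ranged from 7 to 22 higher and from 6 to 18 lower. The authors' processed values gave 37 and 31 and a filter on dim probes 41 and 34. Of the 64 calls, 63 were shared with the authors' values, 55 with the shift, 17 with normexp and 1 with the row block. With the replicate number as a block 0 probes were called in either direction, and 42 of all probes. Deviations of same-numbered arrays correlated at 0.01 to 0.05 and those of other arrays at -0.05 to 0.03. Of 6 arrays, 4 correlated best with their own number. These values are too close to decide whether the numbers pair the arrays. The median difference of 0.04 stayed between 0.01 and 0.06 with 1 library left out. No named gene that was called changed sign. Of 75 named genes 26 that were not called did so under some setting, all with a difference of 0.38 or less in size. H19 and Snhg18, neither well above background on any array, passed the threshold without B41HET replicate 1 and without B41HET replicate 2, so no fold is given. The within-row values were added after seeing the data, and the row block fit, too, sets only B41KO replicate 1 against B41HET. The causes of these shifts were not tested. Of the noncoding probes 33.1% had no array well above background, and their differences are limited by signal.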

Other observations

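Of 57 NR_ probes without a symbol in the RefSeq table, 1 was called. It read 10.94, 10.47 and 10.83 in B41HET and 9.16, 9.22 and 9.33 in B41KO, well above background on all 6 arrays, a log2 difference of -1.51 (adjusted p = 0.00710). Its gene is not named here.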
